A study of Mus musculus with 4 samples.

Results

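The mRNAs of the cytosolic ribosomal proteins, the protein parts of the ribosomes that translate nuclear-encoded mRNAs, were followed in epididymal adipose tissue of obese mice that had or had not passed through a period of weight loss. They were taken by symbol (Rpl or Rps followed by a number, Rplp0 to Rplp2 and Rpsa, leaving out the Rps6k kinases and symbols marked as pseudogenes), which gave 88 of 24421 genes. Of these, 77 encode canonical ribosomal proteins (46 of the large subunit, with its stalk, and 31 of the small subunit), 10 are paralogs or retrocopies, and 1, Rps19bp1, encodes a binding partner of Rps19 and no ribosomal protein.

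A ribosome holds each of its proteins in a fixed ratio, and unused copies are degraded, so cells express these genes at similar levels and regulate them together. Their mRNAs begin with a terminal oligopyrimidine (TOP) tract, a C followed by a run of C and T at the first transcribed bases, through which the growth kinase mTOR controls their translation. In adipose tissue mTOR responds to insulin and amino acids, and ribosome production is among the largest uses of energy and nucleotides in growing cells.

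All mice were wild-type (WT) C57BL/6J males. WC1 mice entered the diet protocol at 8 weeks of age, with high-fat diet (HFD) for 8 weeks, standard diet for 2 weeks and HFD for a final 6 weeks. Ctrl mice went onto HFD at 10 weeks of age and stayed on it for 14 weeks, so that both groups had 14 weeks of HFD and were 24 weeks old when tissue was taken. Poly(A) RNA of whole tissue was sequenced in 2 libraries per group. The labels do not say whether a library stands for 1 animal or for several, so the p-values below measure only the spread between these libraries. Libraries held between 61465029 and 90965297 reads. The unit of the deposited matrix, CPM, is reads over a rescaled library size, and its columns had higher sums in Ctrl than in WC1. In this unit 3 reads corresponded to 0.0345 to 0.0492 CPM, so that counting error was small for nearly every ribosomal protein mRNA. In whole tissue, fewer cells of a type and less RNA per cell cannot be told apart.

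The defining markers of adipose tissue were present in every library, and the cell type markers differed between groups. A marker was called higher or lower at an adjusted p under 0.05 by limma, as described below. Of all genes tested, 10.2% were called higher and 7.71% lower. A marker without a call may still have moved in the same direction. The summed level of 6 adipocyte markers was 8223 and 9014 CPM in Ctrl and 13934 and 17515 CPM in WC1, with 4 of the 6 called higher. Cidec and Fabp4 were higher in both WC1 libraries without a call. Fabp4 made up the largest part of the sum, at 5375 and 5561 CPM in Ctrl and 8661 and 10499 CPM in WC1. The summed level of 6 macrophage markers was 4153 and 3997 CPM in Ctrl and 3098 and 2120 CPM in WC1, with 1 of the 6 called lower. For 4 fibroblast markers the sums were 3416 and 3375 CPM in Ctrl and 2967 and 2398 CPM in WC1, with 3 of the 4 called lower. For 4 endothelial markers they were 339 and 372 CPM in Ctrl and 671 and 860 CPM in WC1, with 3 of the 4 called higher. The part of these shifts in the ribosomal protein values below was not tested.

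Ribosomal protein mRNAs took a smaller share of the reads in WC1. The 88 genes together took 3.44% and 3.27% of all reads in the Ctrl libraries and 2.84% and 2.67% in the WC1 libraries. The groups did not overlap, and the mean share differed by -18.1%, a log2 ratio of -0.29 against an SD of 0.058 between libraries of a group. In TPM, a unit that corrects for transcript length, they took 9.33% and 8.91% in Ctrl and 8.01% and 7.51% in WC1, a log2 ratio of -0.23.

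Lower values in WC1 were spread over almost all members. Of the 88 genes, 85 passed the filter on low values (at least 0.5 CPM in at least 2 libraries). By limma on log2(CPM + 1), with Benjamini-Hochberg adjustment over 14106 genes and a threshold of 0.05, 29 of the 85 fell in WC1, against 7.71% of all genes tested, and 0 rose, against 10.2% of all genes. Both WC1 libraries lay below both Ctrl libraries for 81 of the 85, against 36.6% of all genes, and the log2 fold change was negative for 84 of them, against 52.8%. At an unadjusted p under 0.05, 70 members were lower, against 18.9% of all genes. edgeR on the recovered reads called 28 members lower, against 7.14% of all genes, and 27 of these were among the 29 called by limma. DESeq2 called 65 lower and 1 higher, against 12.3% of all genes lower, and limma without the filter called 5 lower, against 2.93%. The median log2 fold change of the members was -0.36, with the middle of the distribution from -0.43 to -0.31, whereas all genes had a median of -0.02 and a middle from -0.21 to 0.21.

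The members were short, and, as a separate matter, the calls were fewer in TPM. By length, 77 of the 85 members lay in the shortest of 5 equal bins of genes by length, where 12.5% of genes fell and the median log2 fold change was -0.09, whereas 4.61% fell in the longest bin. In the TPM matrix 2 members fell (against 4.13% of all genes) and 1 rose (against 14.6%), the median of the members was -0.22, that of all genes was 0.10, and 84 of 85 members were still negative, against 35.1% of all genes. Length cancels in a ratio between groups, and TPM moved the fold changes of short and long genes by similar amounts. The median of the shortest bin was -0.09 in CPM and 0.03 in TPM, and that of the longest was 0.04 and 0.15. Relative to the median of all genes, the median of the members was -0.34 in CPM and -0.33 in TPM. With the length trend removed from each library it was -0.23, and 8 members fell, against 6.84% of all genes, and 1 rose.

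The calls changed when a library was left out. With 1 library in a group the variance comes from the other group alone, so a loss of calls there does not mean a smaller difference. When Ctrl 1 was left out, 2 of all genes tested rose and 4 fell by limma, and when Ctrl 2 was left out, 6 rose and 6 fell. None of the 65 genes picked for description by rule was called in either fit. Members called lower were 0 in both fits, with 11 and 30 members lower at an unadjusted p under 0.05, against 7.88% and 9.18% of all genes, and edgeR and DESeq2 were not run on these subsets. Without WC1 1 limma called 73 members lower, against 19.5% of all genes, and without WC1 2 it called 34, against 8.73%. The median log2 fold change of the members lay between -0.44 and -0.29 in these fits, and between 82 and 83 members were negative.

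**Figure D1:**
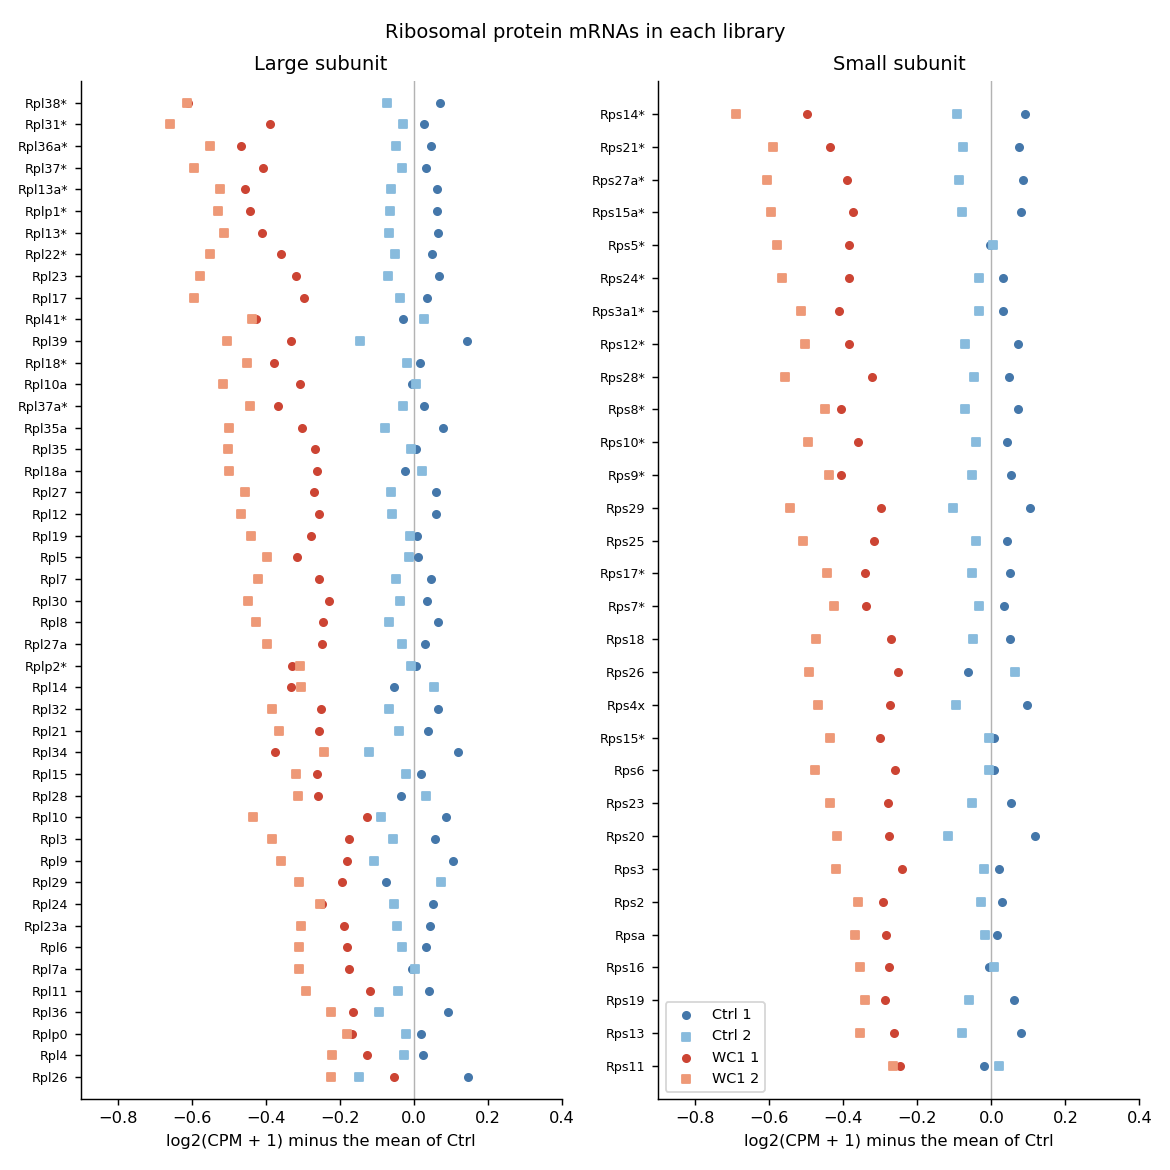
Each row is a canonical ribosomal protein gene of the large (left) or small (right) subunit, and each point is a library (blue, Ctrl; red, WC1; circles, library 1; squares, library 2). The x axis is log2(CPM + 1) minus the mean of both Ctrl libraries, an asterisk marks an adjusted p under 0.05, and Rps27 is left out because the split of reads between it and Rps27rt differed by library number. The red points lie to the left of the blue points in nearly every row, and WC1 2 lies to the left of WC1 1 in most rows.

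The canonical proteins were then described by subunit. All 77 had a negative log2 fold change, between -0.61 and -0.14, and 27 passed the test, against 7.71% of all genes tested. In the small subunit 15 of 31 fell, with a median log2 fold change of -0.38, and in the large subunit 12 of 46 fell, with a median of -0.34; the difference between the subunits was not tested. By mean CPM the canonical proteins differed between groups by between -34.8% and -11.3%. The libraries within a group also differed in one direction: 66 of the 77 were higher in Ctrl 1 than in Ctrl 2, with a median log2 difference of -0.09 (Ctrl 2 minus Ctrl 1), and 74 of 77 were higher in WC1 1 than in WC1 2, with a median of -0.14. The WC1 library with the lower ribosomal protein levels, WC1 2, was also the one with the highest adipocyte marker sum and the lowest macrophage and fibroblast marker sums, and the part of this in the values was not tested.

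The genes with the largest decreases were spread over both subunits. Rpl38, a large subunit protein known for its role in the translation of Hox mRNAs in the embryo, measured 192 and 174 CPM in Ctrl and 120 and 119 CPM in WC1. No WC1 library came near a Ctrl library, and Rpl38 fell by 0.61 ± 0.08 on the log2 scale (SE, adjusted p = 0.018), the largest decrease of any tested member. Rps14, a small subunit protein of the platform region, measured 433 and 381 CPM in Ctrl and 287 and 251 CPM in WC1, and fell by 0.59 ± 0.11 (adjusted p = 0.031). Rpl31, at the rim of the exit tunnel, measured 499 and 480 CPM in Ctrl and 374 and 309 CPM in WC1. It fell by 0.52 ± 0.12 (adjusted p = 0.043), and its WC1 libraries differed from each other more than its Ctrl libraries did. Rps21, a short small subunit protein, measured 183 and 165 CPM in Ctrl and 128 and 115 CPM in WC1, and fell by 0.51 ± 0.09 (adjusted p = 0.029). Rpl36a, a large subunit protein at the exit site for transfer RNA, measured 203 and 190 CPM in Ctrl and 142 and 134 CPM in WC1, and fell by 0.51 ± 0.08 (adjusted p = 0.022). In these 5 genes the groups were separated by more than the spread within either group.

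Among the other members with the smallest p were Rpl37, Rpl18, Rpl37a and Rpl13a, all proteins of the large subunit. Rpl37 measured 252 and 241 CPM in Ctrl and 185 and 163 CPM in WC1, and fell by 0.50 ± 0.09 (adjusted p = 0.029). Rpl13a, which is known for a second role in silencing inflammatory mRNAs in myeloid cells, measured 605 and 555 CPM in Ctrl and 422 and 403 CPM in WC1, and fell by 0.49 ± 0.09 (adjusted p = 0.032). Rpl18 and Rpl37a fell by 0.41 ± 0.08 and 0.40 ± 0.08, with adjusted p = 0.029 and 0.031.

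The promoters of these genes show what ribosomal protein genes share around the start of transcription. RefSeq promoters of GRCm38.p6, from 250 bases before to 50 after the annotated start, were matched for 57 of the 77 canonical genes. A pyrimidine run (a C followed by at least 4 of C or T on the strand of the gene, beginning within 10 bases of the annotated start) was in 30 of the 57 (52.6%), against 28.1% of 27025 promoters. The motif CCGGAAG, of the kind bound by ETS family factors such as GABP, was on either strand of this whole window in 23 (40.4%), against 9.12% of all promoters, and AAGATGG, of the kind bound by YY1, was in 8 (14.0%), against 6.48%. TATAAA was in 5 (8.77%), against 14.2%, and GGGCGG, of the kind bound by Sp1, was in 34 (59.6%), against 35.9%. The complement of CCGGAAG holds a pyrimidine stretch and can overlap a run. Below are the inner 60 bases, from 40 before to 20 after the annotated start, for 4 genes that fell (Rpl38, Rpl31, Rps21 and Rpl13a) and for Rplp0, which did not pass the test, with pyrimidine runs in capitals.
Rpl38, chr11:114668540-114668599, + strand: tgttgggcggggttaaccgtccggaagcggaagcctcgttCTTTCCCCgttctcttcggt
Rpl31, chr1:39367811-39367870, + strand: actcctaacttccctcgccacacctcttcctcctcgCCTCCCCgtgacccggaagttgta
Rps21, chr2:180257339-180257398, + strand: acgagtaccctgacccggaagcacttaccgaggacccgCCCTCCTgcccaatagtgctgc
Rpl13a, chr7:45128726-45128785, - strand: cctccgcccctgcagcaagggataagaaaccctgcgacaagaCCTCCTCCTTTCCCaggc
Rplp0, chr5:115559427-115559486, + strand: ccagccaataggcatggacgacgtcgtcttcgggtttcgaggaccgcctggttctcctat
The first 4 hold a run at or next to the annotated start, and Rpl38, Rpl31 and Rps21 also hold ccggaag in the window. Runs were found in genes of both kinds: 13 of 21 promoters of canonical genes that fell held one, and 17 of 36 of those that did not pass. Rpl37 and Rpl37a, which fell, held none, and Rps6, which did not pass, held one. In the Rplp0 window no run begins within 10 bases of the annotated start, which says only that these letters are not there.

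Next, the stalk proteins were examined, because Rplp0 (36B4) was the gene to which the study's quantitative PCR was normalized. The stalk is the flexible arm of the large subunit that recruits translation factors, and it consists of Rplp0 carrying dimers of Rplp1 and Rplp2. Rplp0 measured 790 and 767 CPM in Ctrl and 694 and 687 CPM in WC1, without overlap. Its log2 fold change was -0.17 ± 0.09 (95% interval -0.42 to 0.07, adjusted p = 0.24), among the smallest of the canonical proteins, and it was -0.03 in TPM (adjusted p = 0.80). Rplp1 measured 670 and 613 CPM in Ctrl and 471 and 444 CPM in WC1, and fell by 0.49 ± 0.10 (adjusted p = 0.035). Rplp2 measured 299.8 and 297 CPM in Ctrl and 237 and 241 CPM in WC1, and fell by 0.32 ± 0.07 (adjusted p = 0.042), a call that edgeR did not share (adjusted p = 0.054). The differences among the 3 stalk genes were not tested.

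Since a ratio to Rplp0 adds the same amount to every fold change, genes commonly used as PCR references were set side by side. The list includes Rplp0 itself and the members Rpl13a and Rps18. Of 15 such genes, 3 fell and 0 rose, against 7.71% and 10.2% of all genes, and the median log2 fold change was -0.23. Tfrc, the transferrin receptor, fell by 1.03 ± 0.10 (adjusted p = 0.013) and Pgk1, a glycolytic enzyme, by 0.68 ± 0.10 (adjusted p = 0.023). The third was Rpl13a, described above. In TPM 2 of the 15 fell and 1 rose, against 4.13% and 14.6% of all genes. The gene that rose was Sdha, a subunit of succinate dehydrogenase (0.41, adjusted p = 0.028), and Rpl13a did not pass (adjusted p = 0.060). The log2 fold change was -0.03 ± 0.07 for Hprt (95% interval -0.20 to 0.15) and -0.09 ± 0.10 for Tbp (-0.34 to 0.17), and the sign of both turned in TPM. For Rps18 it was -0.37 ± 0.10, for Gapdh -0.23 ± 0.10, for Ppia -0.20 ± 0.11, for Actb -0.29 ± 0.22 and for B2m 0.38 ± 0.17, none of which passed the test. The remaining values were -0.54 for Gusb, -0.31 for Ywhaz, 0.11 for Polr2a and 0.27 for Sdha, likewise without passing in CPM. Expressed relative to Rplp0, Hprt would stand at 0.15, Rpl13a at -0.32 and Tfrc at -0.85 on the log2 scale.

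**Figure D2:**
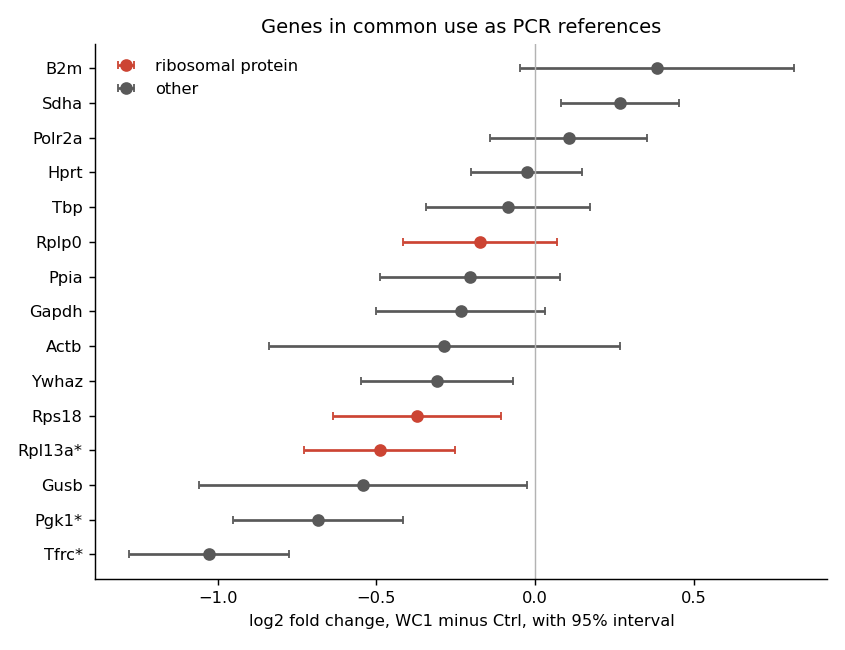
Log2 fold changes of 15 genes in common use as PCR references (x axis, WC1 minus Ctrl on the log2(CPM + 1) scale), with 95% intervals from limma. Red marks ribosomal proteins and an asterisk an adjusted p under 0.05; Rplp0 sits at -0.17 with an interval that includes 0, and Rpl13a, Pgk1 and Tfrc lie below 0.

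Further members with known roles outside translation did not pass the test. Rps6, the small subunit protein phosphorylated by S6 kinase downstream of mTOR, measured 627 and 622 CPM in Ctrl and 522 and 449 CPM in WC1 (log2 fold change -0.37 ± 0.11, adjusted p = 0.077). Rpl5 and Rpl11, which together with ribosomal 5S RNA bind and inhibit the ubiquitin ligase Mdm2 when ribosome assembly fails, had log2 fold changes of -0.36 ± 0.09 (adjusted p = 0.053) and -0.21 ± 0.10 (adjusted p = 0.20). Rpsa, also known as the laminin receptor, measured 967 and 945 CPM in Ctrl and 785 and 741 CPM in WC1 (-0.33 ± 0.10, adjusted p = 0.087). In all 4 genes both WC1 libraries lay below both Ctrl libraries, as in 36.6% of all genes. Mdm2 itself fell by 0.51 ± 0.10 (adjusted p = 0.033), from 145 and 144 CPM to 110 and 93.0 CPM.

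Levels per length were compared in TPM. The canonical proteins had a median of 1081 TPM over the 4 libraries, with quartiles of 798 and 1339 TPM, and 75 of 77 were above 100 TPM. Rpl41, a very short basic peptide, was the highest at 2881 ± 99.1 TPM in Ctrl and 2353 ± 38.0 TPM in WC1 (SD, n = 2), ahead of Rplp1 and Rps12. The ratio of the 90th to the 10th percentile was 2.97. Near the low end, Rps15a was listed at 110 TPM although its 282 CPM was ordinary, because the length behind its values was 7.30 times that of the median canonical gene. The 2 canonical genes under 100 TPM, Rpl26 and Rpl34, each had a near-identical copy elsewhere in the genome with a higher value, and whether the reads listed for the copy came from the gene was not tested.

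Ribosomal protein genes have many retrocopies, sequences made by reverse transcription of a spliced mRNA, and reads that match several of them can be assigned to the wrong one. In GENCODE M21, 77 of the 88 members had at least 1 copy with 95% or more identity over 80% or more of the coding sequence, 561 copies in all, of which 16 were listed in the matrix. Copies were counted by sequence alone, so not all are retrocopies. The count also takes in transcripts overlapping a member, such as Gm45713 for Rpl13a, and Rps27 as a copy of Rps27rt. In 3 members a copy had more reads than the member, and in 5 the copies held over 10% of the reads. Values of Rps27, Rps27rt, Rpl26, Rpl34 and Rpl21 are therefore uncertain when each is read alone.

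Rps27 and its retrocopy Rps27rt divided their reads by library number and not by group. Rps27, a zinc finger protein of the small subunit, measured 207 and 4.45 CPM in Ctrl and 161 and 3.78 CPM in WC1. Rps27rt, a gene without introns, measured 32.6 and 206 CPM in Ctrl and 23.5 and 150 CPM in WC1. Rps27 therefore took 86.4% and 87.3% of the pair in Ctrl 1 and WC1 1 but 2.12% and 2.46% in Ctrl 2 and WC1 2. Rps27 lies at chr3:90212522-90213651 and Rps27rt at chr9:114982366-114982739, both on the - strand of GRCm38. Their coding sequences, from GENCODE M21, are 255 bases long with 0 differences, so no read from within them can tell the genes apart, and the shared sequence is shown once.
Rps27 and Rps27rt: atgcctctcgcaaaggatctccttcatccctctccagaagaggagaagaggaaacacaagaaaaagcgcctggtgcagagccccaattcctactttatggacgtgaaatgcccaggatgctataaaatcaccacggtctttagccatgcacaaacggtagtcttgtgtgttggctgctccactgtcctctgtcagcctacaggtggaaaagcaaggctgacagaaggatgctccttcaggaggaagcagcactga
As a sum the pair measured 240 and 210 CPM in Ctrl and 185 and 154 CPM in WC1, without overlap, with a log2 fold change of -0.41 (adjusted p = 0.076). Taken separately, the log2 fold changes of Rps27 and Rps27rt had an SE of 2.32 and 1.18 in the main fit, which does not take library number into account. Within each library number both genes were lower in WC1 than in Ctrl. Among all genes tested, 8 shifted by 4-fold or more between library numbers in the same direction in both groups, the other 6 being C5ar1, Hbb-bt, Gm4070, Wwtr1, Gm14436 and Ptpn11; they were chosen for this after their values were seen, and the cause was not tested.

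For Rpl26 and Rpl34 the copy had the higher value in every library. Rpl26, a large subunit protein near the exit tunnel, was listed at between 0.43 and 0.85 CPM, whereas Gm15772, annotated as a processed pseudogene with 99.5% identity to the Rpl26 coding sequence, measured 484 and 464 CPM in Ctrl and 350 and 309 CPM in WC1. Gm15772 fell by 0.53 ± 0.10 (adjusted p = 0.030), a value within the range of the canonical ribosomal proteins. Rpl34, another large subunit protein, measured 11.8 and 9.83 CPM in Ctrl and 8.08 and 8.94 CPM in WC1. Its copy Rpl34-ps1, with 99.4% identity, measured 271 and 238 CPM in Ctrl and 194 and 165 CPM in WC1, and fell by 0.50 ± 0.12 (adjusted p = 0.045). BC004004, a copy of Rpl21 with 98.6% identity, held 17.7% of the pair's reads and stood at 104 and 108 CPM in Ctrl and 115 and 114 CPM in WC1, a log2 fold change of 0.12 ± 0.07 (adjusted p = 0.26). When every member was summed with its copies, a step added after the data were seen, 31 members fell, against 7.77% of all genes, and the 29 called before were all among them.

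**Figure D3:**
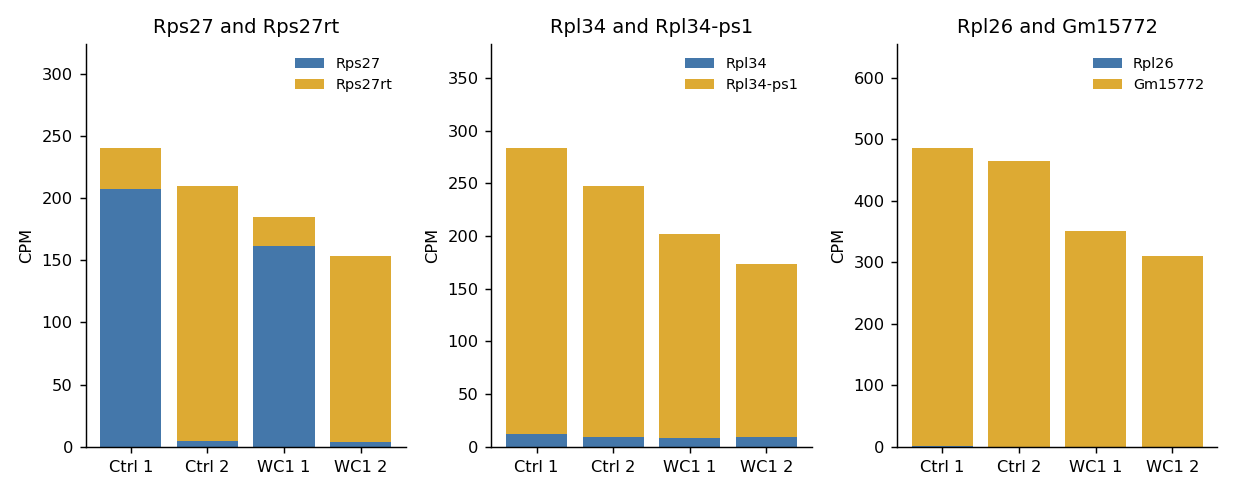
Stacked bars give CPM (y axis) in each library for a ribosomal protein gene (blue) and its near-identical copy (yellow). Rps27 holds most of the pair in Ctrl 1 and WC1 1 and Rps27rt in Ctrl 2 and WC1 2, whereas Rpl34-ps1 and Gm15772 hold nearly all reads in every library; the height of each summed bar is lower in both WC1 libraries.

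The paralogs, genes that encode alternative versions of a ribosomal protein, were set beside their partners. Of 10 paralogs and copies, 7 passed the filter and 2 of these fell, against 7.71% of all genes. Rpl22l1 measured 39.3 and 37.1 CPM in Ctrl and 28.5 and 29.5 CPM in WC1, and fell by 0.38 ± 0.07 (adjusted p = 0.033), beside a decrease of 0.45 ± 0.10 (adjusted p = 0.038) in Rpl22. Rpl36al measured 127 and 123 CPM in Ctrl and 95.7 and 98.3 CPM in WC1, and fell by 0.36 ± 0.07 (adjusted p = 0.029), beside Rpl36a. Both pairs thus moved in one direction. Rps27l, a paralog known as a target of p53, had a log2 fold change of -0.32 ± 0.08 (adjusted p = 0.052), and Rpl7l1, which takes part in ribosome assembly, of -0.16 ± 0.08 (adjusted p = 0.21), beside -0.34 ± 0.10 (adjusted p = 0.082) in Rpl7. Rpl37rt, a retrocopy of Rpl37 annotated as a transcribed processed pseudogene, was listed at 14.6 TPM on average and had a log2 fold change of -0.39 ± 0.11 (adjusted p = 0.073).

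Rps4l was the 1 tested member with a positive log2 fold change. Annotated in GENCODE M21 as a transcribed processed pseudogene, this copy of the X-linked Rps4x measured 19.9 and 22.3 CPM in Ctrl and 25.9 and 30.0 CPM in WC1. Both WC1 libraries lay above both Ctrl libraries, as in 32.7% of all genes, with a log2 fold change of 0.39 ± 0.11 (adjusted p = 0.070), and in TPM it was 0.53 ± 0.12 (adjusted p = 0.044). Rps4x had a log2 fold change of -0.37 ± 0.12 (adjusted p = 0.094), from 664 and 581 CPM in Ctrl to 514 and 449 CPM in WC1. Per length, Rps4l stood at 43.1 TPM in Ctrl against 1364 TPM for Rps4x. The paralogs known from muscle and testis were scarce: Rpl10l was listed at 0 in every library, Rpl3l was between 0 and 0.103 CPM, and Rpl39l stood at 0.72 and 0.38 CPM in Ctrl and 0.26 and 0.079 CPM in WC1, all below the filter, whereas their partners were abundant. The log2 fold changes of these partners were -0.28 ± 0.15 for Rpl10 (adjusted p = 0.23), -0.28 ± 0.11 for Rpl3 (adjusted p = 0.14) and -0.42 ± 0.12 for Rpl39 (adjusted p = 0.077). In Rpl10 the libraries of the WC1 group differed from each other by more than those of any other canonical gene but Rps27, at 783 and 632 CPM.

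A further ribosomal protein is made as a fusion with a ubiquitin-like sequence under another symbol. Fau, the source of Rps30, measured 365 and 374 CPM in Ctrl and 266 and 255 CPM in WC1, and fell by 0.50 ± 0.08 (adjusted p = 0.022). Rps19bp1, the listed gene that is no ribosomal protein, had a log2 fold change of -0.18 ± 0.09 (adjusted p = 0.22).

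The rest of the translation apparatus was then examined with lists written from general knowledge. Of all genes tested, 7.71% fell and 10.2% rose, the shares beside which these counts stand. Of 36 initiation factors, 4 fell and 1 rose, with a median log2 fold change of -0.06. Those that fell were Eif1, Eif1b, Eif3k and the cap-binding factor Eif4e, by between 0.30 and 0.40, and the one that rose was the scaffold Eif4g1 (0.46 ± 0.09, adjusted p = 0.038). In TPM 0 of the 36 fell and 2 rose, against 4.13% and 14.6% of all genes. Of 9 elongation factors and associated proteins, 1 fell, Eef1b2 by 0.39 ± 0.08 (adjusted p = 0.031), and 8 were negative, with a median of -0.22. Btf3, which binds nascent chains at the exit tunnel, was at -0.29 ± 0.07 (adjusted p = 0.051). Of 77 mitochondrial ribosomal proteins, which form the separate ribosome of the mitochondrion, 2 fell (Mrpl23 and Mrpl33) and 1 rose (Mrps6, 0.63 ± 0.12, adjusted p = 0.033), and their median of -0.02 equalled that of all genes. In TPM 0 of the 77 fell and 4 rose, with a median of 0.12, and 0 of the 9 elongation genes fell. The difference between the cytosolic and the mitochondrial list was not tested as such.

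**Figure D4:**
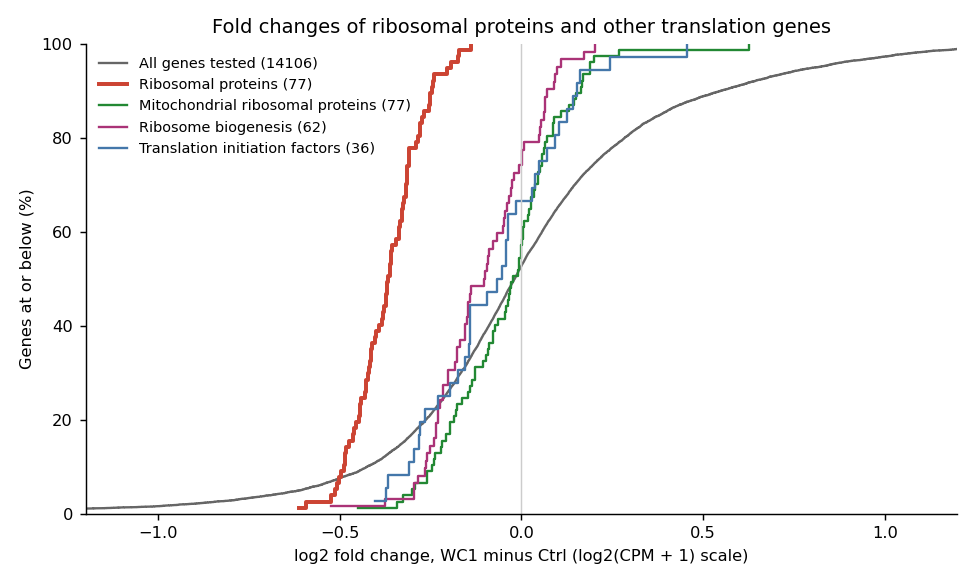
Cumulative distributions of the log2 fold change (x axis, WC1 minus Ctrl), with the percentage of genes at or below each value on the y axis, for 14106 genes, 77 canonical cytosolic ribosomal proteins, 77 mitochondrial ribosomal proteins, 62 biogenesis factors and 36 initiation factors. The curve of the cytosolic ribosomal proteins lies wholly between -0.61 and -0.14, whereas the other lists cross 0.

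Genes that take part in making ribosomes were counted in the same way, beside 7.71% of all genes lower and 10.2% higher. Of 62 biogenesis factors, 2 fell and 0 rose, with a median log2 fold change of -0.10. Nip7, needed for the large subunit, fell by 0.53 ± 0.08 (adjusted p = 0.024), and fibrillarin (Fbl), the methyltransferase of ribosomal RNA, by 0.38 ± 0.08 (adjusted p = 0.035). Of 14 genes of RNA polymerase I and its factors, 2 fell, Polr2e and Polr2f, both subunits shared with the other nuclear RNA polymerases, and the median was -0.09. Among 15 host genes of small nucleolar RNAs, many of which also carry TOP tracts, 2 fell, Gas5 by 0.34 ± 0.08 (adjusted p = 0.044) and Snhg20 by 0.48 ± 0.11 (adjusted p = 0.048), with a median of -0.18. Of 12 genes of ribosome surveillance Mdm2 alone fell, and Usp16, which acts late in maturation of the small subunit, was at 0.19 ± 0.07 (adjusted p = 0.13). In TPM 1 of the 62 biogenesis factors and 1 of the 15 host genes fell, and 0 of the RNA polymerase I and surveillance genes, against 4.13% of all genes.

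Of 16 regulators of TOP mRNA translation, 4 rose and 0 fell, against 10.2% and 7.71% of all genes. The log2 fold change was positive for 11 of the 16, against 47.2% of all genes, with a median log2 fold change of 0.13. Mtor, the growth kinase itself, measured 44.9 and 44.0 CPM in Ctrl and 64.7 and 60.5 CPM in WC1, and rose by 0.48 ± 0.07 (adjusted p = 0.021). Eif4ebp1, the repressor of cap-dependent initiation that mTOR inactivates, measured 107 and 114 CPM in Ctrl and 144 and 165 CPM in WC1, and rose by 0.48 ± 0.09 (adjusted p = 0.033). The kinases Rps6ka3 and Rps6kb1 rose by 0.39 ± 0.08 and 0.28 ± 0.07, with adjusted p = 0.036 and 0.046. These are mRNA levels, and neither kinase activity nor translation was measured. In TPM 7 of the 16 rose and 0 fell, against 14.6% and 4.13% of all genes, and DESeq2 also called 3 of them lower, against 12.3%. The genes on this list are long, with a median length 6.19 times that of the median canonical ribosomal protein mRNA, and long genes were called higher more often than short ones, at 14.0% in the longest and 6.84% in the shortest of the 5 bins.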

How the data were processed

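Gene-by-library matrices of 4 libraries were used, with groups and library numbers from the sample titles. The submitters' processing notes name fastp, HISAT2, StringTie and mm10 without versions, and the annotation behind the matrices was not stated in these sources. The authors deposited a matrix named CPM, whose columns summed to 97.6% to 105% of what plain CPM would give, so it was handled as signal, reads over a rescaled library size. As a check, 100% of its values were whole reads to within 0.01 read. The second deposited matrix holds TPM.

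The CPM values were compared as log2(CPM + 1), a scale that understates changes of low genes, with limma 3.58.1 in R 4.3.3 (variance with an abundance trend, two-sided), after a filter of at least 0.5 CPM in at least 2 libraries. P-values were adjusted over 14106 genes with a threshold of 0.05; SE and 95% intervals are from this fit. An exact permutation test of 1 gene cannot go below p = 0.333, since 4 libraries form pairs in 3 ways. No list was given a p. edgeR 4.0.16 and DESeq2 1.42.0 on the recovered reads were alternatives. On data simulated for WC1 against Ctrl with 200 of 14106 genes changed, limma recovered 71% of 2-fold and 96% of 4-fold changes with 14 false calls.

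Copies were found with blastn 2.17.0 among GENCODE M21 transcripts (GRCm38), at 95% identity over 80% of the coding sequence. Promoters were from RefSeq (GRCm38.p6), with 1 start per gene.

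The members, lists and naming rule were chosen with earlier results of these data known. The rule named Rplp0, Rplp1, Rplp2, Rpsa, Rps6, Rpl5 and Rpl11; called members, at most 10 per direction by smallest p; the 5 largest and 5 smallest log2 fold changes; the 3 highest and 3 lowest by TPM; paralog pairs; the 3 with the largest difference within a group; the 2 smallest p of each other list; and all reference genes. Some genes are not reported here. Other genes, such as Eif1, Eif4e, Eif4g1, Mrpl33, Rps6ka3, Rps6kb1, Rps15a and the copies, were named after their values were seen. Summed markers of T and NK cells were 101 to 156 CPM, of mesothelium 48.3 to 129 CPM, of erythroid cells 3.41 to 6.91 CPM and of epididymis 0 to 3.02 CPM, with 3 of 4 epididymis markers at 0 in every library. B cell sums were 4.31 and 2.59 CPM in Ctrl and 7.24 and 26.4 CPM in WC1, with 1 of 4 markers (Cd79b) called higher. Skeletal muscle sums were 5.97 and 8.21 CPM in Ctrl and 17.3 and 16.5 CPM in WC1, with the 1 tested marker (Acta1) called higher. Of all genes tested, 10.2% were called higher.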

Additional observations from a re-analysis of the deposited data

How the results depend on the processing

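Of 19 alternatives, each left between 82 and 84 members with a negative log2 fold change. Members called lower, 29 as reported, were 5 without the filter on low values, 13 with quantile normalization, 2 in TPM, 8 with the length trend removed, 18 without the variance trend and 65 with DESeq2 (beside 2.93%, 7.51%, 4.13%, 6.84%, 5.35% and 12.3% of all genes, in that order); members called higher, 0 as reported, were 1 in TPM, 1 with the length trend removed and 1 with DESeq2. With edgeR 28 were lower, 27 of them also called by limma. The median log2 fold change of members, -0.36, was -0.25 with quantile normalization, -0.22 in TPM and -0.25 with the length trend removed; relative to all genes, -0.34, it was -0.23 and -0.23 with quantile normalization and length removal. Genes called, 1443 higher and 1088 lower, were 788 higher and 532 lower without the filter, 2054 higher and 583 lower in TPM, and 2125 higher and 1736 lower with DESeq2. When 1 library was left out, and the lone library was assumed to vary like the other group, members called lower ranged from 0 to 73, members higher from 0 to 1, genes higher from 2 to 2424 and genes lower from 4 to 2748. The cause of these differences was not tested.

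Library numbers are not said to pair the libraries, and the differences between numbers in the groups correlated with r = 0.19 over all genes, which are not replicates. With the replicate block 47 members were lower and 1 was higher, among 1497 lower and 1769 higher genes.

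Signs turned for these genes: Hprt (0.048 with quantile normalization, 0.11 in TPM, 0.043 with the length trend removed) and Tbp (0.047 in TPM). With 1 library left out, the log2 fold change ranged from -0.17 to 0.0026 for Tbp, from -0.29 to 0.0090 for Rpl26, from -2.90 to 2.35 for Rps27 and from -1.77 to 0.86 for Rps27rt. For 65 named genes, 1017 of 1233 values kept direction and side of the threshold. The part of depth in the calls was not tested.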
